A study of Mus musculus with 8 samples.

Results

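The H2 complex on mouse chromosome 17 holds the class I and class II genes that present peptides to T-cells, and many genes with no part in antigen presentation lie between them. These neighbours include complement components, Hsp70 heat shock proteins, small surface proteins of the Ly6 family, and housekeeping genes for transcription, RNA processing and metabolism. A congenic strain that carries the H2 complex of another strain also receives the alleles of these neighbours. The probes of this interval outside the H2 genes were taken as all probes other than controls on chromosome 17 between positions 33550087 and 36882517 (mm8), without genes whose name starts with H2- and without *Tap1*, *Tap2*, *Psmb8*, *Psmb9*, *Lta*, *Ltb* and *Aif1*. This left 205 of 41174 probes, for 148 of 27845 gene or transcript names. Of the 205 probes, 180 carry one of 123 gene symbols and 155 passed the signal filter, for 109 genes. Names were read as the array lists them, so 3 probes of 2 genes stayed in that RefSeq now names as H2 genes, EG630499 (*H2-K2*, -0.21 ± 0.48, adjusted p = 0.397, limma) and A130038H09Rik (*H2-Eb2*, 0 on every array at its tested probe). Of these, 2 were tested and 0 called, and without them the counts of probes called and past an adjusted p of 0.01 given below were the same.

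Each of the 8 arrays compares the pancreas of 1 female NOD mouse, 12 weeks old and labeled red (Cy5), with 1 pool of RNA from 8 age-matched NOD.B10 mice labeled green (Cy3). The study's methods name the strains as NOD/LtJ and NOD.B10Sn-H2b/J. NOD.B10 mice share the NOD background but carry the b haplotype of H2 from a B10 donor. Genes on the transferred segment therefore differ in origin between red and green, and where that segment ends was not determined here. There was 1 pool and no array with the dyes exchanged, so a dye effect, a feature of the pool, a difference in how an allele binds a probe, and a difference in transcript level cannot be told apart at a single probe. Replicates 1 to 4 lie on slide 1 and replicates 5 to 8 on slide 2 of 4 arrays each, and the numbers pair no samples.

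Red signal was well above background at 21.6% to 35.3% of spots per array and green signal at 57.6% to 60.7%. All 5 acinar markers gave red and green signal well above background on every array. Of 12 leukocyte markers, 10 had a mean above the pool, 6 had an unadjusted p below 0.05, all higher, and 1 passed an adjusted p of 0.01 (*Cd3e*, 0.61). The means of *Lck* (2.30), *Cd3d* (2.07), *Itgax* (1.56) and *Ptprc* (1.46) were larger, with adjusted p from 0.0101 to 0.0319. The summed signal of the 12 leukocyte markers, most of it from *Lyzs* (0.06) and *Cd3e*, was 17136 to 42696 in the NOD mice and 18503 to 32367 in the pool channel, and the 5 islet hormone genes summed to 49858 to 303503 in NOD and 182056 to 231394 in the pool channel. Of 3 duct markers *Cftr* was lower in all 8 mice (-0.66, adjusted p = 0.0001, limma), with red signal well above background on no array, and *Krt19* (-0.09) and *Sox9* (-0.02) did not pass. The part of these other cells in the results below was not tested. In whole tissue, fewer cells of a type and less RNA per cell cannot be told apart.

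All values are log2 ratios of NOD over the pool, negative where NOD is lower, given as mean ± SD over 8 mice, and percent values are the geometric mean over mice with the pool at 100%. A probe was called at a change of at least 2-fold with an adjusted p below 0.01 by limma's one-sample moderated test over all 28105 probes tested. Of the 155 probes of the interval, 8 were called, for 7 genes, and all 8 were lower in NOD. Across the whole array 1.72% of probes were called and 1.41% were called lower, compared to 5.16% in the interval. No probe of the interval was called higher by limma or by the plain one-sample statistic (0.31% of all probes), and 1 was at least 2-fold higher at an unadjusted p below 0.05. Without replicate 1, 1 probe was called higher, that of 2310014H01Rik (1.03, adjusted p = 0.0070). At an adjusted p below 0.01 and any fold, 17 probes were lower and 5 higher, for 21 genes in all (6.94% of all probes in either direction, 4.4% lower and 2.54% higher). At an unadjusted p below 0.05 and at least 2-fold, the interval held 13 probes, 12 of them lower (3.7% of all probes in either direction, 2.98% lower and 0.726% higher).

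**Figure D1:**
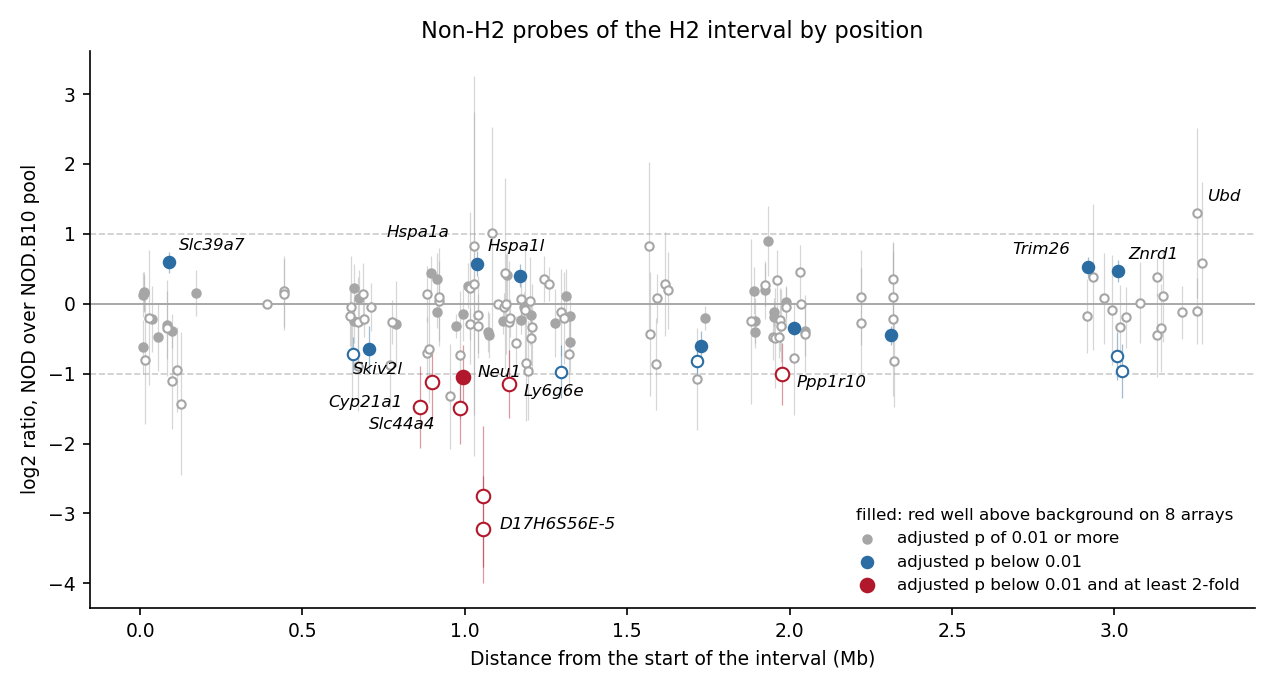
Mean log2 ratio of each tested probe (vertical axis, NOD over pool, whiskers show the SD of 8 mice) by its distance in Mb from the start of the interval. The 8 called probes lie between 0.86 and 1.98 Mb, all below 0, and only *Neu1* among them has red signal well above background on all 8 arrays.

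The size of most of these calls rested on weak red signal. Where a signal did not rise above background, the authors' software put in a stand-in value made from the background noise. The deposited ratio was 0 where both dyes held a stand-in value or where the stand-in of 1 dye was at least as bright as the other dye, and no spot with a red stand-in value read above 0 on any array. A red stand-in value could therefore give a spot a ratio of 0 or below but none above 0. Spots of the same probe were averaged, so a probe with stand-in values at part of its spots could still read above 0. Of the 8 called probes, 7 had such a red value on at least 1 array and 4 on at least 4 arrays, and 6 had red signal well above background on no array. Their green signal was well above background on all 8 arrays for 7 of the 8. Over the 155 probes, red was a stand-in on at least 4 arrays at 36 (35.8% of all probes), well above background on at least 4 arrays at 84 (43.1% of all probes), and on all 8 arrays at 50 (26.3% of all probes). Among these 50, 1 was called (0.636% of such probes on the whole array), 5 passed an adjusted p of 0.01 below the pool and 5 above it (6.46% and 7.57% of such probes).

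The calls also moved with the way the signals were turned into ratios. With background-subtracted signals centered on each array's median, 39 probes were called (25.2%, compared to 25.8% of all probes), 20 higher and 19 lower, and the median of all 28105 probes moved from -0.09 to 0.09. With the ratio of the deposited processed signals, which also uses the spots whose deposited ratio was set to 0, 19 were called (12.3%, compared to 14.8% of all probes), 7 higher and 12 lower. Under neither of these was the share called in the interval above that of the whole array. With normexp background correction and loess, 3 were called (1.94%, compared to 0.235% of all probes), 2 higher and 1 lower.

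**Figure D2:**
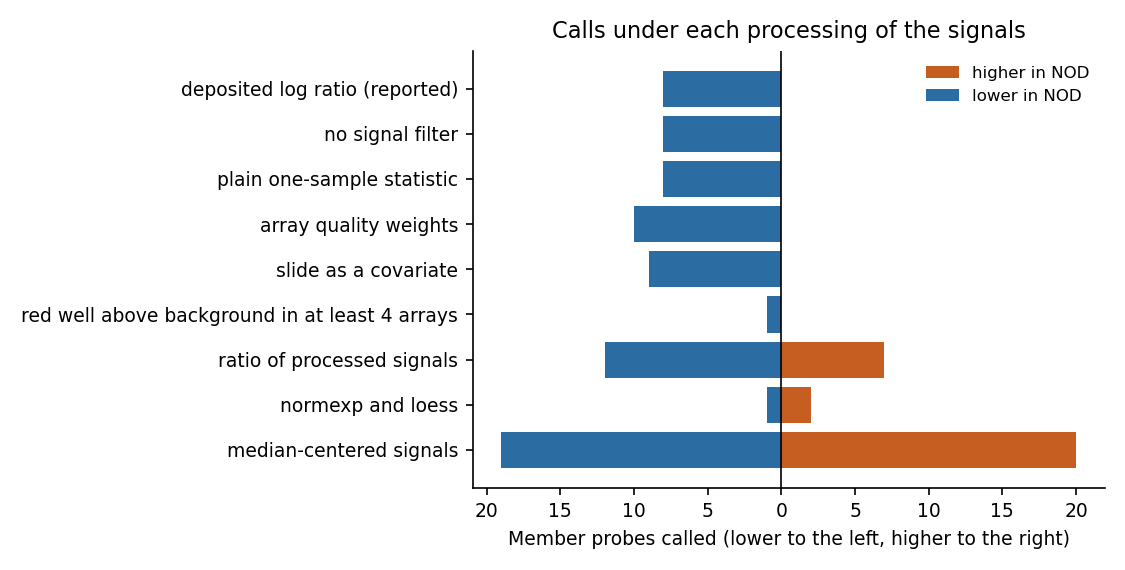
Number of probes of the interval called lower (left of 0) and higher (right of 0) in NOD, for each processing of the signals. The reported ratio gives 8 lower and 0 higher, and median-centered signals give 19 lower and 20 higher.

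*D17H6S56E-5* was the lowest gene of the interval by the deposited ratio, with red signal well above background on no array at either probe. It is a protein-coding gene in RefSeq that is distinct from *Lsm2*, and its function is not stated here. The probe at chr17:34605239-34605298 read -2.75, -4.03, -3.86 and -4.03 in the mice of slide 1 and -2.72, -3.71, -2.08 and -2.63 in those of slide 2. All 8 mice were far below 0, and the slides overlapped. The mean was -3.23 ± 0.76 (adjusted p = 0.0006, limma). Its red signal had a mean of 56.5 and was a stand-in value on 3 arrays, compared to a mean green signal of 482. The probe at chr17:34605764-34605823 gave -2.76 ± 1.01 (adjusted p = 0.0025), with a range from -4.06 to -1.59 and a median of -2.78. Here the slides did not overlap, with means of -3.62 on slide 1 and -1.89 on slide 2 (adjusted p = 0.0347 for the slide difference, limma), and red was a stand-in value on 7 arrays. The 2 probes lie 525 bases apart and both kept the call with each mouse left out in turn. With normexp and loess the means were -0.54 (adjusted p = 0.0179) and -0.62 (adjusted p = 0.0045), so neither reached 2-fold, and *Neu1* was lower than both.

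The genes on each side of *D17H6S56E-5* did not pass the test. *Lsm2*, a core protein of RNA processing complexes, read -0.16 ± 0.55 (adjusted p = 0.586), and the cytosolic valyl-tRNA synthetase gene that the array lists as *Vars2* and RefSeq as *Vars* read -0.45 ± 0.32 (adjusted p = 0.0268). Probes for *Lsm2* and *Vars2* were below 0 in 3 and in 8 of the 8 mice.

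*Slc44a4*, a transporter of the choline transporter-like family, was called by 1 of its 2 probes. That probe, at chr17:34536354-34536523, read from -2.24 to -0.74 with a median of -1.51 and a mean of -1.49 ± 0.51 (adjusted p = 0.0020). Its red signal had a mean of 56.1 and was well above background on no array, so the size of the ratio is limited by the red background. All 4 mice of slide 1 were below all 4 of slide 2. The other probe begins 10 bases away and read -0.73 ± 0.92 (adjusted p = 0.140), with 5 mice below 0 and 3 above. The pair did not differ past the threshold (0.76, adjusted p = 0.167). The call was kept with each mouse left out, while the mean was -0.81 (adjusted p = 0.0375) with median-centered signals and -0.12 (adjusted p = 0.218) with normexp and loess.

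*Cyp21a1*, the steroid 21-hydroxylase known from the adrenal cortex, read from -2.17 to -0.56 with a median of -1.47 and a mean of -1.47 ± 0.59 (adjusted p = 0.0032). All 8 mice were below 0, with red signal at stand-in values on 6 arrays. RefSeq lists a pseudogene name among the synonyms of this gene, so signal shared with a near-identical copy cannot be told apart. The call was lost without replicate 1, 3 or 4 (adjusted p up to 0.0113). The next tested genes were *C4b* (-0.29 ± 0.62, adjusted p = 0.382) and the kinase gene *Stk19* (0.14 ± 0.40, adjusted p = 0.507). Means for *Cyp21a1* were -0.43 (adjusted p = 0.318) with median-centered signals and -0.06 (adjusted p = 0.358) with normexp and loess.

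*Ly6g6e*, a small surface protein of the Ly6 family, was called by its dimmer probe at chr17:34686675-34686734. The values ran from -1.79 to -0.26 with a median of -1.22 and a mean of -1.14 ± 0.48 (adjusted p = 0.0040). Its brighter probe, 576 bases away, read -0.26 ± 0.88 (adjusted p = 0.565) with mice from -1.93 to 1.20. Neither probe had red signal well above background on any array, and the difference of the pair was 0.88 (adjusted p = 0.0629). With median-centered signals the called probe moved to 0.09. Its call was lost without replicate 2, 4, 5, 6 or 8 (adjusted p up to 0.0140).

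*Skiv2l*, the RNA helicase of the Ski complex that assists the RNA exosome, read from -2.20 to -0.65 with a median of -1.04 and a mean of -1.13 ± 0.50 (adjusted p = 0.0049). All 8 mice were below 0. Its neighbour *Dom3z* (RefSeq *Dxo*), an enzyme that removes faulty caps from RNA, was above 0 in all 8 mice at 0.43 ± 0.25 without passing the threshold (adjusted p = 0.0136). The probes of these 2 genes stand next to each other among the tested probes. The next gene on the far side, *Rdbp* (RefSeq *Nelfe*), a subunit of the complex that pauses RNA polymerase II, read -0.12 ± 0.22 (adjusted p = 0.297). The call of *Skiv2l* was kept with median-centered signals (-1.52) and lost with normexp and loess (-0.36, adjusted p = 0.0121). With each mouse left out in turn it was kept only without replicate 8, over means from -1.19 to -0.97 and adjusted p from 0.0032 to 0.0158.

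*Neu1*, the lysosomal sialidase, was the called gene with strong signal in both dyes, with means of 2323 in red and 4715 in green. The probe at chr17:34543216-34543275 read from -1.58 to -0.28 with a median of -1.13 and a mean of -1.04 ± 0.45 (adjusted p = 0.0043), or 48.5% of the pool. The slides did not overlap, with means of -1.42 on slide 1 and -0.66 on slide 2 (adjusted p = 0.0467 for the slide difference, limma). The call was kept with median-centered signals (-1.86) and with normexp and loess (-1.32). It was lost with 6 of the 8 mice left out in turn (all but replicates 5 and 8), with means from -1.15 to -0.97 and adjusted p from 0.0034 to 0.0140. A second probe, 396 bases away and also well above background on all 8 arrays, read -0.15 ± 0.38 (adjusted p = 0.456). It was higher than the called probe in all 8 mice, by 0.89 ± 0.28 (adjusted p = 0.0040, limma over 9600 pairs), so the 2 probes did not give the same size of change.

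*Ppp1r10*, a nuclear regulatory subunit of protein phosphatase 1, was called by 1 of 3 probes. The called probe at chr17:35525813-35525872 read from -1.44 to -0.28 with a median of -1.11 and a mean of -1.01 ± 0.44 (adjusted p = 0.0045), and its red value was a stand-in on 7 arrays. The brightest probe, well above background on all 8 arrays and 14098 bases away, read 0.02 ± 0.22 (adjusted p = 0.875) and was higher than the called probe in all 8 mice, by 1.04 ± 0.39 (adjusted p = 0.0048). The remaining probe read -0.05 ± 0.30. The call was lost with 6 of the 8 mice left out in turn (all but replicates 5 and 8, adjusted p up to 0.0149). This was the sole pair of the interval that differed by at least 1 with an adjusted p below 0.01.

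**Figure D3:**
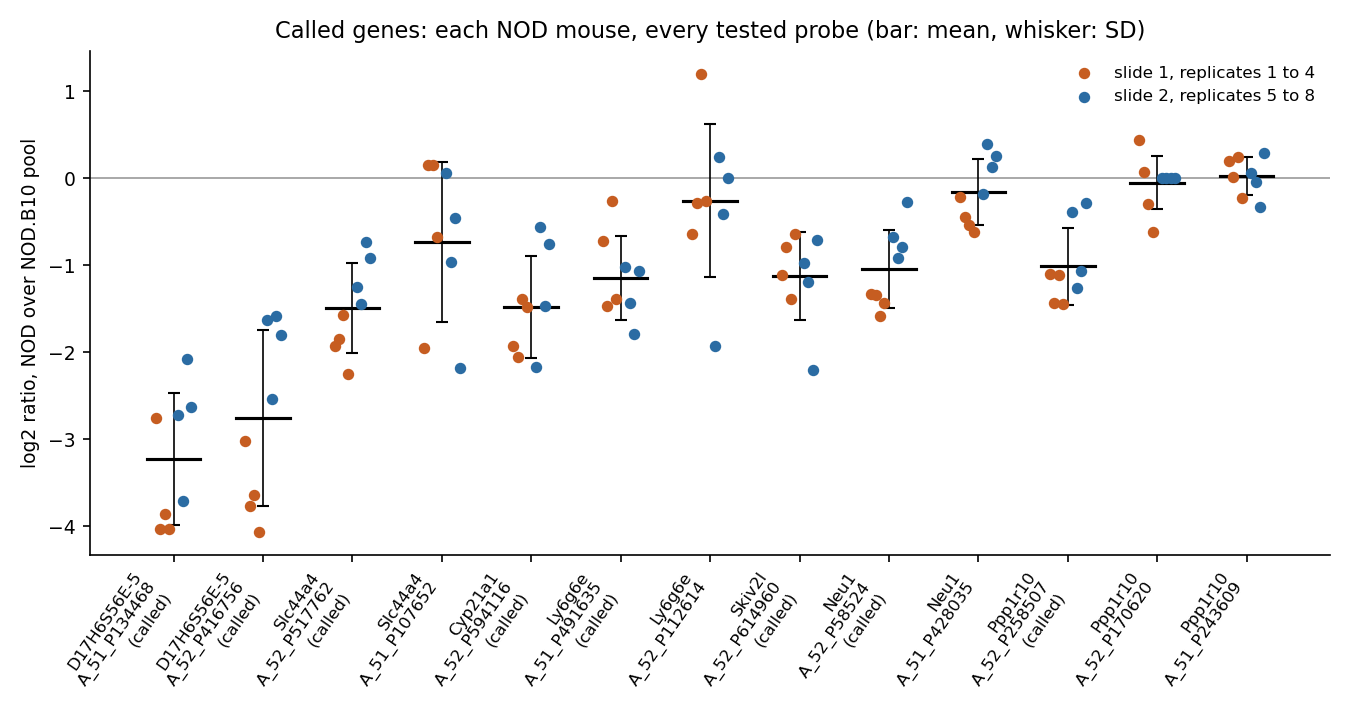
Log2 ratio of each of the 8 mice (points, orange for slide 1 and blue for slide 2) at every tested probe of the 7 called genes, with the mean (bar) and SD (whisker). Both *D17H6S56E-5* probes lie at -1.59 or below in every mouse, while other probes of *Slc44a4*, *Ly6g6e*, *Neu1* and *Ppp1r10* reach or cross 0.

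Gene groups were counted at the brightest tested probe of each gene. There, of 18505 genes on the array, 4.8% were lower and 3.29% higher at an adjusted p below 0.01, and 25% and 10.8% at an unadjusted p below 0.05. Of the interval's 109 tested genes, these shares were 10.1% and 4.59%, and 30.3% and 14.7%. Counting any tested probe, 6.48% of all genes and 14.5% of the interval's were lower at an adjusted p below 0.01. Of 3 tested Hsp70 genes, 1 was higher and 0 lower. *Hspa1a* and *Hspa1b* code for the stress-induced protein and *Hspa1l* for a relative known from testis. Upstream sequences (the 250 bases before each RefSeq start, GRCm38.p6, read 5′ to 3′ on the gene's strand) are shown because the genes lie side by side and gave different patterns between mice. Capitals mark GAANNTTC, a core of the heat shock element, searched on both strands. CCAAT was searched on both strands too and does not overlap with it.
Hspa1a, chr17:34972157-34972406, minus strand: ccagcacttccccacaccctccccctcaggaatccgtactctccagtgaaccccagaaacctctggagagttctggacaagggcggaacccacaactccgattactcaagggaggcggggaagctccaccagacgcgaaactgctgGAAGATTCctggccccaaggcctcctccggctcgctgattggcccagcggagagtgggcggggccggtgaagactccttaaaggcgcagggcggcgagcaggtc
Hspa1b, chr17:34959239-34959488, minus strand: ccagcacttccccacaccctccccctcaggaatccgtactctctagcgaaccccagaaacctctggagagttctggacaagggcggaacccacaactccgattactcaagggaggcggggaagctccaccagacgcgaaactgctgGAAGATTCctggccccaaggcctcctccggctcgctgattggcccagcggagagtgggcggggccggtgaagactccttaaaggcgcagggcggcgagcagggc
Hspa1l, chr17:34972453-34972702, plus strand: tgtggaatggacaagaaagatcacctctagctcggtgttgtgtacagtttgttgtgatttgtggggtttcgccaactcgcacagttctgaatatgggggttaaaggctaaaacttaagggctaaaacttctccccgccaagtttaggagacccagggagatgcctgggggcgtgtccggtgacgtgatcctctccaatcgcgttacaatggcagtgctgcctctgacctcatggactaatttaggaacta
The *Hspa1a* and *Hspa1b* windows are identical at 247 of 250 positions, and each holds 1 GAANNTTC match and 1 CCAAT match. The *Hspa1l* window holds 0 GAANNTTC matches and 1 CCAAT match. Among all 32851 RefSeq windows of this length, 6.69% hold GAANNTTC and 33.9% hold CCAAT. The shares among 86 tested genes of the interval with a window were 9.30% and 36.1%. A match describes letters only, and the strains' own sequences were not analysed here.

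The brighter *Hspa1a* probe read 1.20, 4.46, 1.21 and 4.31 in the mice of slide 1 and -1.26, -1.43, -0.74 and -1.08 in those of slide 2. The other *Hspa1a* probe, 30 bases away, read 0.76, 4.08, 0.82 and 3.43 and then -1.65, -1.0, -2.77 and -1.41. Both probes placed all slide 1 mice above the pool and all slide 2 mice below it, with replicates 2 and 4 highest. Red was well above background on 4 arrays at each probe, and a stand-in value on 4 at the brighter and 2 at the other. The size of the values below 0 is therefore limited by the red background. The slide means of the brighter probe were 2.79 and -1.13, and the slide difference did not pass the threshold (adjusted p = 0.0679, limma). As its values below 0 are limited by the red background, the size of this difference is not well determined. The exact permutation of 4 against 4 gave p = 0.0286, which is the smallest it can give. Over all 8 mice the mean was 0.83 ± 2.43 (adjusted p = 0.504) and no direction can be given.

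*Hspa1b* read 0.29, 1.98, -0.11 and 1.30 on slide 1 and -1.66, -0.40, 0.24 and 0.19 on slide 2 at its brighter probe (0.23 ± 1.09, adjusted p = 0.700). Its highest values were again in replicates 2 and 4, but the slides overlapped. As the 2 genes are near-identical copies, signal of one at the probes of the other cannot be told apart. *Hspa1l* was above 0 in all 8 mice, from 0.34 to 0.88 with a median of 0.57, and its mean of 0.57 ± 0.18 passed the test (adjusted p = 0.0016). That mean was -0.03 with median-centered signals and 0.01 with normexp and loess, so its direction rests on the ratio used.

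**Figure D4:**
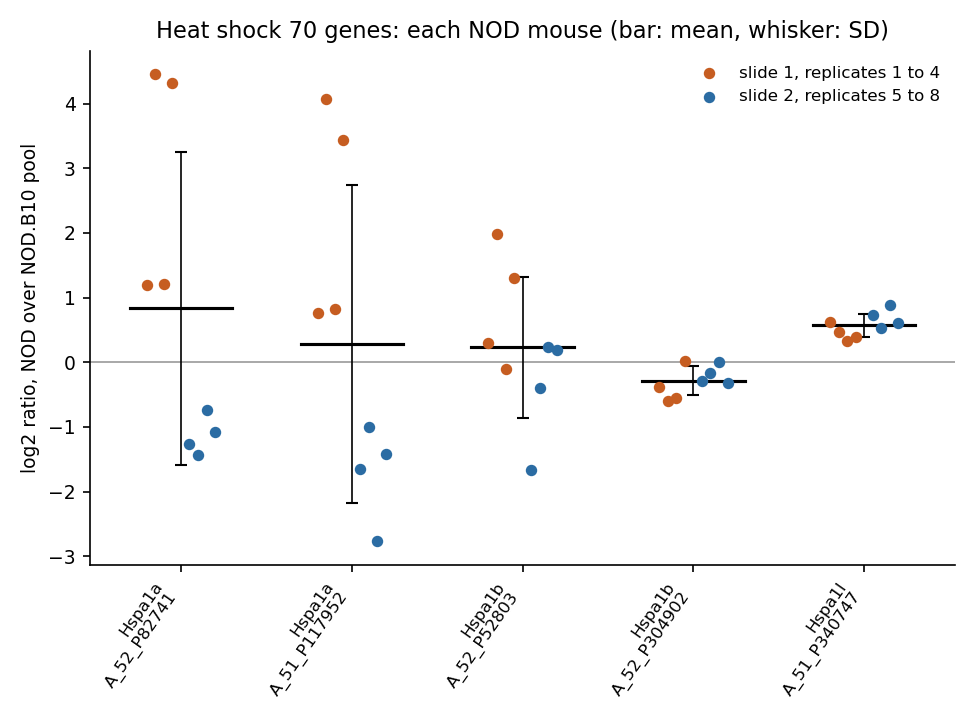
Log2 ratio of each mouse at the 5 tested probes of *Hspa1a*, *Hspa1b* and *Hspa1l*, with the mean (bar) and SD (whisker). Both *Hspa1a* probes separate slide 1 (orange, above 0) from slide 2 (blue, below 0), and *Hspa1l* lies between 0.34 and 0.88 in all 8 mice. Red was a stand-in value on 4 arrays at the brighter *Hspa1a* probe and on 2 at the other, which limits the size of values below 0.

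Complement genes of the interval code for proteins of the classical and alternative pathways, and 0 of 3 tested genes passed by limma or by the plain one-sample statistic (1 at an unadjusted p below 0.05). *C2* read 0.04 ± 0.57 over 8 mice (adjusted p = 0.941). It was above 0 in all 4 mice of slide 1 and below 0 in all 4 of slide 2, with slide means of 0.54 and -0.46 (adjusted p = 0.0262 for the slide difference, limma). A second *C2* probe, with red signal well above background on 3 arrays, read 0.10 ± 0.70 with slide means of 0.57 and -0.37, and there the slides overlapped, with replicate 6 of slide 2 at 0.42 (adjusted p = 0.215 for the slide difference). *Cfb* read 0.35 ± 0.38 (adjusted p = 0.0993) and *C4b* -0.29 ± 0.62 (adjusted p = 0.382), with *C4b* lowest in replicates 5 and 8.

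Of 5 tested Ly6 family genes, 1 passed higher and 0 lower at the brightest probe of each gene, and *Ly6g6e* was lower at its other probe. *Ly6g5c* was above 0 in all 8 mice, from 0.19 to 0.72 with a median of 0.37 and a mean of 0.40 ± 0.17 (adjusted p = 0.0040, lost without replicate 1, 3, 4, 5 or 6), and was -0.01 both with median-centered signals and with normexp and loess. *Ly6g6d* read 0.41 ± 0.33 (adjusted p = 0.0423) at its tested probe, while a probe 38 bases away that failed the signal filter read -0.94 ± 0.46 and was below 0 in all 8 mice, with red signal well above background on no array. *Ly6g5b* read 0.07 ± 0.31 (adjusted p = 0.673) and *Ly6g6c* -0.01 ± 0.72 (adjusted p = 1.00). Their median over 5 genes was 0.07, compared to -0.09 over all probes.

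Leukocyte genes and genes of the tumor necrosis factor locus had 0 of 5 tested genes past the threshold by limma or by the plain statistic (3 at an unadjusted p below 0.05, all higher). *Ubd*, a ubiquitin-like protein induced by inflammatory cytokines, read 1.30 ± 1.21 (adjusted p = 0.0623), with 5 mice between 1.47 and 3.01 and 3 at exactly 0, where red was a stand-in value. Red was well above background on 2 arrays and green on 3, so the size of this ratio is not well determined. *Lst1*, a leukocyte-specific gene, read 0.35 ± 0.33 (adjusted p = 0.0614) and was above 0 in 7 of 8 mice. *Tnf* itself, also among those 3 genes, read 0.29 ± 0.24 (adjusted p = 0.0476). It had no signal well above background in either dye, and red counted as a stand-in value on all 8 arrays. *Nfkbil1* read -0.27 ± 0.48 (adjusted p = 0.294) with all 4 slide 1 mice at or below -0.47, and *Btnl1* was exactly 0 in 6 of 8 mice.

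Among 14 tested chromatin and transcription genes, 1 was higher and 2 were lower at the brightest probe, as at any tested probe (median -0.24). *Pbx2*, a homeodomain partner of Hox proteins, read from -1.21 to -0.44 with a median of -0.62 and a mean of -0.72 ± 0.24 (adjusted p = 0.0019). Slide means of -0.74 and -0.70 were close, and its second probe read -0.74 ± 0.63. *Gtf2h4*, a subunit of the general transcription factor TFIIH, read from -0.90 to -0.33 with a mean of -0.60 ± 0.21 (adjusted p = 0.0022), with red well above background on all 8 arrays. *Znrd1*, a subunit of RNA polymerase I, was higher in all 8 mice, from 0.26 to 0.66 with a mean of 0.47 ± 0.16 (adjusted p = 0.0022). A second *Znrd1* probe read -0.33 ± 0.60 and the pair differed by 0.79 (adjusted p = 0.0372). *Ehmt2*, a histone H3 lysine methyltransferase, read -0.31 ± 0.17 (adjusted p = 0.0120) and *Bat3* (RefSeq *Bag6*) -0.17 ± 0.27 (adjusted p = 0.245).

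The group for RNA processing and translation had 17 tested genes, with a median of -0.33. At the brightest probe 5 were lower (4 by the plain one-sample statistic) and 0 higher. The shares were 4.8% and 3.29% of all genes, and 10.1% and 4.59% of the interval's genes. At an unadjusted p below 0.05, 9 were lower and 2 higher, compared to 25% and 10.8% of all genes and 30.3% and 14.7% of the interval's. Counting any tested probe, 7 were lower, with *Ppp1r10* and *Vars2l* added (6.48% of all genes). *D17H6S56E-5* was put in this group without a known role, and *Ppp1r11* is described here only as a phosphatase inhibitor. The counts therefore describe the list and not 1 function. Beside those genes, *Skiv2l*, *Abcf1* and *Rpp21* made up the 5 lower at the brightest probe. *Abcf1*, an ATP-binding protein of translation initiation, had the smallest spread of them, from -0.50 to -0.18 with a mean of -0.35 ± 0.10 (adjusted p = 0.0016), or 78.5% of the pool. *Rpp21*, a subunit of RNase P, read from -0.65 to -0.18 with a mean of -0.45 ± 0.14 (adjusted p = 0.0017). *Ppp1r11*, an inhibitor of protein phosphatase 1, read from -1.44 to -0.38 with a mean of -0.75 ± 0.34 (adjusted p = 0.0054), and kept the threshold only without replicate 5 or 8. Its neighbour 1700022C21Rik, which RefSeq names *Znrd1as*, read -0.96 ± 0.38 (adjusted p = 0.0032, lost without replicate 3 or 4), while *Znrd1* between them was higher. *Vars2l* (RefSeq *Vars2*), the mitochondrial valyl-tRNA synthetase, was lower in all 8 mice at both probes, at -1.08 ± 0.73 (adjusted p = 0.0215) and -0.82 ± 0.29 (adjusted p = 0.0023). Red signal was well above background on 1 array at the former and 2 at the latter. *Mrps18b* read -0.47 ± 0.30 (adjusted p = 0.0180) and *Prr3* 0.45 ± 0.40 (adjusted p = 0.0548).

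Of 17 tested genes for membrane, lipid and metabolic functions, 1 was higher and 2 were lower (*Neu1* and *Cyp21a1*) at the brightest probe of each gene, with a median of -0.22. Counting any tested probe, 4 were lower, with *Slc44a4* and *Atp6v1g2* added (6.48% of all genes). *Slc39a7*, a zinc transporter of the endoplasmic reticulum and Golgi, was higher in all 8 mice, from 0.35 to 0.78 with a median of 0.63 and a mean of 0.59 ± 0.15 (adjusted p = 0.0009), or 151% of the pool. It was a bright probe, with a mean red signal of 63280, and kept an adjusted p below 0.01 with each mouse left out. *B3galt4*, a glycolipid galactosyltransferase, was lower in all 8 mice at -0.62 ± 0.39 without passing (adjusted p = 0.0167). *Atp6v1g2*, a subunit of the vacuolar proton pump, read -0.12 ± 0.62 (adjusted p = 0.726) at its brighter probe and -0.97 ± 0.37 (adjusted p = 0.0029) at the other, 239 bases away. At the dimmer probe red signal was well above background on no array and a stand-in value on 3.

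The list for structure, adhesion and matrix also holds genes of other roles, *Csnk2b*, *Msh5* and *Stk19* among them. It had 0 of 12 tested genes past the threshold by limma or by the plain statistic (6 at an unadjusted p below 0.05, all lower), with a median of -0.10. The lowest adjusted p was that of *Tubb5*, a beta-tubulin, at -0.40 ± 0.24 (adjusted p = 0.0141). *Col11a2*, a fibrillar collagen chain, read -0.94 ± 0.61 (adjusted p = 0.0187) and was below 0 in all 8 mice, and *Cchcr1* read -0.86 ± 0.66 (adjusted p = 0.0333), each with red signal well above background on 1 array. *Csnk2b*, the regulatory subunit of casein kinase 2, read -0.23 ± 0.19 (adjusted p = 0.0463) and *Ddr1*, a collagen receptor, -0.20 ± 0.17 (adjusted p = 0.0498). Of 4 tested Trim genes, 1 was higher and 0 lower. *Trim26*, a ubiquitin ligase of the tripartite motif family, was above 0 in all 8 mice, from 0.32 to 0.80 with a mean of 0.53 ± 0.15 (adjusted p = 0.0012), and a dimmer probe of it read -0.17 ± 0.53. *Trim39* read 0.09 ± 0.65 (adjusted p = 0.814). Outside these groups, *Fkbpl*, an immunophilin-like protein, was lower at -0.65 ± 0.33 (adjusted p = 0.0077), but missed the threshold whichever mouse was left out (adjusted p from 0.0112 to 0.0237), and 2310014H01Rik (RefSeq *Ppp1r18*) read 0.90 ± 0.50 (adjusted p = 0.0112) with 7 of 8 mice above 0. Of 9 olfactory receptor probes at the far end, 5 passed the signal filter, 0 passed limma's test (lowest adjusted p = 0.305, 0 at an unadjusted p below 0.05), and 0 had red signal well above background on any array.

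The genes passing in opposite directions lay among each other. Per 0.5 Mb the interval held between 5 and 44 tested probes, and the medians ran from -0.28 to 0.08. Called probes numbered 4 between 0.5 and 1 Mb from the start, 3 between 1 and 1.5 Mb, and 1 between 1.5 and 2 Mb. At the left bound, *Wdr46* inside read 0.13 ± 0.32 (adjusted p = 0.447) and *Rgl2* outside read -0.38 ± 0.18 (adjusted p = 0.0061). At the right bound, no probe just inside was tested and *Olfr99* outside was at 0 on all 8 arrays.

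The mean was below 0 at 100 of the 155 probes (60% of all probes). Their median was -0.20, with the middle 50% between -0.48 and 0.12, compared to -0.09 for all 28105 probes. On each of the 8 arrays the interval's median was below that of all probes, by 0.07 to 0.29. The same array's H2 genes and the 7 genes left out by name had a median of -0.02 over 58 probes, with 2 called higher and 7 lower, and the 10 Mb on each side of the interval had a median of -0.13 over 476 probes, with 18 called, all lower. These medians are descriptions and the difference between them was not tested. Of the 155 probes, 37 were lower in all 8 mice (9.4% of all probes, 23.9% of the interval's) and 8 were higher in all 8 mice (3.92% and 5.16%).

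Probes of one gene agreed only in part. The interval holds 46 pairs of brightest and other probe, for 38 genes. The means had the same sign in 29 pairs and opposite signs in 16, 1 pair had a mean of 0 at one probe, and the median size of the difference was 0.44, compared to 0.33 over all 9600 pairs on the array. At an adjusted p below 0.01, 1 pair differed by at least 1 (1.77% of all pairs) and 3 differed by any amount (2.98% of all pairs). These were the pairs of *Ppp1r10* and *Neu1* above and that of *Gabbr1*, a receptor subunit for GABA, whose probes read 0.39 ± 0.27 and -0.45 ± 0.60. The dimmer probe had the lower mean in 35 of 46 pairs (76.1%), compared to 54.6% of all pairs. In the 6 pairs with red well above background on all 8 arrays at both probes, 5 had the same sign and the median difference was 0.26. The exception was *Rnf5*, a ubiquitin ligase of the endoplasmic reticulum, whose probes 132 bases apart read 0.23 ± 0.34 and -0.25 ± 0.31. In each of the 8 mice the former was higher, by 0.47 ± 0.12 (adjusted p = 0.0145), and both probes were lower on slide 1 than on slide 2.

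**Figure D5:**
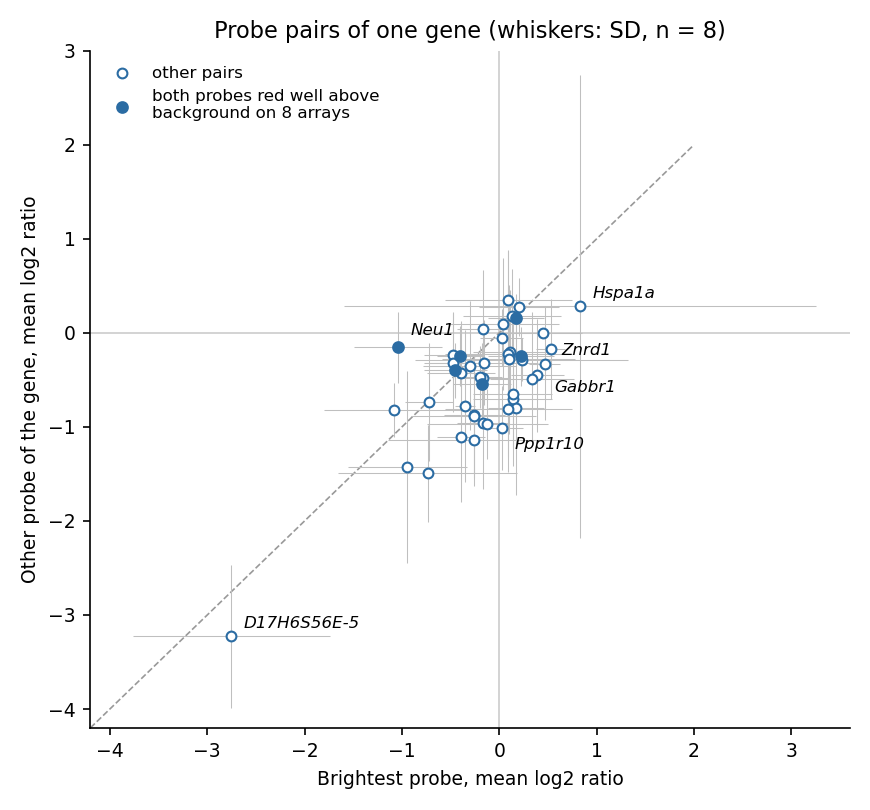
Mean log2 ratio of the brightest probe (horizontal axis) and of each other probe (vertical axis) for the 46 probe pairs, with the SD of 8 mice as whiskers and the dashed line marking equal values. In 35 of 46 pairs the dimmer probe has the lower mean, and *D17H6S56E-5* is far below 0 on both axes.

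Several genes of the interval differed between the slides. At an adjusted p below 0.01 this held for 1 of 155 probes (0.178% of all probes), the brighter *Rnf5* probe, with slide means of -0.09 and 0.54 (adjusted p = 0.0092). At an adjusted p below 0.05 it held for 9 probes (3.26% of all probes), and the slides did not overlap at 30 probes (12.9% of all probes, 19.4% of the interval's). Within slide 1 or slide 2 alone, with 4 mice each, 0 probes of the interval were called and 0 had an adjusted p below 0.01 by limma, against 0 and 3 called on the whole array. At an unadjusted p below 0.05 and at least 2-fold the counts were 3 higher and 13 lower on slide 1 (0.882% and 4.22% of all probes), and 1 higher and 14 lower on slide 2 (0.79% and 4.51% of all probes). Slides carry different mice, so a slide effect and a difference between mice cannot be told apart.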

How the data were processed

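Feature Extraction (Agilent, release 10.7.3.1) on two-color 60-mer arrays with mm8 (NCBI36) positions was the authors' processing. The deposited log10 ratio of red over green is 0 where both dyes held stand-in values (44.8% to 65.5% of zeros per array) or where the stand-in value of 1 dye was at least as bright as the other dye (34.5% to 55.2%). Each deposited intensity is a processed or background-subtracted signal per dye, with quality flags. Log ratios were converted to log2 and averaged per probe.

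A probe was tested if it had a symbol and if red processed signal reached 25 on 4 or more arrays. Of 25 probes with a symbol that failed, 13 had green signal well above background on all 8 arrays. limma (3.58.1, under R 4.3.3) fitted all 28105 tested probes with Benjamini-Hochberg adjustment, as it did for probe pairs (brightest minus other) and slides. The statistics were tested on simulated data. The remaining software was data.table (1.17.8), Python 3.11.15, numpy 2.4.6, pandas 2.3.3 and matplotlib 3.10.9. No source says that the mice of a slide share a litter or day, and the number of arrays limits precision.

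Genes were named if given with the interval (*D17H6S56E-5*, *Slc44a4*, *Ly6g6e*, *Ppp1r10*), called, next to a called gene, carrying several probes with 1 at an adjusted p below 0.01, among the 8 highest or 8 lowest with red signal and one sign in at least 7 of 8 mice, or as examples of a gene group. *Wdr46*, *Rgl2*, *Olfr99*, *Gabbr1*, *Rnf5*, *Tnf*, *Col11a2*, *Cchcr1*, *Cd3e*, *Lck*, *Cd3d*, *Itgax*, *Ptprc*, *Lyzs*, *Cftr*, *Krt19* and *Sox9* were chosen after their values were seen. The interval, groups, rules and tests were chosen with earlier results of these data known. Current symbols and upstream windows are from RefSeq (GRCm38.p6), which matched 173 of 180 probes and renamed 20 genes, with no position converted between builds. Probe sequences were not used here. Alternatives were median-centered signals, normexp (offset 50) with loess, the processed ratio, other filters and thresholds, a plain statistic, array weights, slide as a covariate, irregular spots left out, bounds moved by 0.5 Mb, other probes of a gene, each mouse left out, and, chosen after seeing the data, each slide alone and the interval without probes now named as H2 genes.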

Additional observations from a re-analysis of the deposited data

Results flagged for a closer look

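Single mice stood far from the others at 3 of 58 probes looked at in this way, about as many as chance gives (1 in 20). *Tnxb*, a matrix glycoprotein, read -1.01 in replicate 1 and between -0.23 and -0.02 in the other mice. *Btnl1*, a butyrophilin-like surface protein, read 1.35 in replicate 2 and between -0.29 and 0 elsewhere. *Trim31*, a ubiquitin ligase, read 1.59 in replicate 3 and between -0.56 and 0 elsewhere. The *Btnl1* and *Trim31* probes had red signal well above background on no array, and read exactly 0 on 6 and 5 arrays. The rate of 1 in 20 is for values that vary freely, so it does not apply to these probes.

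Among the 25 probes of the interval without a gene symbol, which entered no test, the probe for the transcript ENSMUST00000015595 read 0.29 ± 0.25 with red signal well above background on all 8 arrays, and was above the pool in 7 of 8 mice.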

How the results depend on the processing

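No paired analysis was possible because each mouse was compared with the same pool on its own array. Red signal alone sets the filter, and at weak red signal the size of a ratio is limited by the stand-in values. Of 155 probes, 8 were called (484 on the whole array), against 1 with red signal well above background on at least 4 arrays (84 probes fitted, 133 called on the array), 39 with median-centered signals (7248), 3 with normexp and loess (66), 19 with the processed ratio (4160), 16 at 1.5-fold (1109), and 0 by limma in slide 1 or slide 2 alone, where 79 and 54 probes had an unadjusted p below 0.05 (33.1% and 22.1% of all probes). Leaving out a mouse gave 4 to 8 calls, with 4 without replicate 2, 3, 4 or 6 and 5 without replicate 7. With median-centered signals and the processed ratio the share of the interval was below that of the array. A probe called higher appeared without replicate 1, where 5 were lower. The 22 probes with an adjusted p below 0.01 became 59 with median-centered signals, 12 with normexp and loess, 38 with the processed ratio, 0 in either slide alone, 55 at an adjusted p below 0.05, and 13 to 23 with a mouse left out (13 without replicate 3 or 4). The median of -0.20 moved to -0.031 with normexp and loess and stayed between -0.23 and -0.15 with a mouse left out. The 1 pair of probes that differed by at least 1 became 2 with normexp and loess, 0 where both probes had red signal on at least 4 arrays, and 0 or 1 with a mouse left out (0 without replicate 1, 2, 3, 4, 6 or 7). The 1 probe that differed between slides became 0 with red signal on at least 4 arrays.

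Single genes changed direction, and the cause was not tested. With normexp and loess this held for *Slc44a4* (other probe, 0.019), *Ly6g6e* (brighter probe, 0.022), *Ppp1r10* (brightest probe, -0.16), *Tnxb* (0.092), *Prr3* (-0.026), *Ly6g6d* (-0.19), *C2* (-0.15), *Ly6g5c* (-0.0053), *Lst1* (-0.059), *Btnl1* (-0.063), *Stk19* (-0.050) and LOC433099 (0.073). With median-centered signals it held for both *Ly6g6e* probes (0.93 and 0.092), *Ppp1r10* (-0.34), *Hspa1l* (-0.026), *Prr3* (-0.20), *Ly6g6d* (-0.35), *C2* (-0.69), *Hspa1b* (-0.20), *Ly6g5c* (-0.011), *Lst1* (-0.31), *Stk19* (-0.77) and LOC433099 (1.53). Slide 1 alone turned *Ly6g6e* (0.0030), *C4b* (0.040), *Ly6g6c* (0.37) and *Nrm* (-0.070). Slide 2 alone turned *Ppp1r10* (-0.0073), *Atp6v1g2* (0.20), *C2* (-0.46), *Hspa1a* (-1.13), *Hspa1b* (-0.41), *Nfkbil1* (0.10), *Bat3* (0.035), *Trim39* (-0.36) and *Rdbp* (0.040). Array quality weights turned *Ly6g6c* (0.087). Another tested probe of the gene had the opposite sign for *Ppp1r10* (-1.01 and -0.050 against 0.025), *Trim26* (-0.17), *Znrd1* (-0.33), *Hspa1b* (-0.28), *Bat3* (0.043), *Trim39* (-0.22 and -0.81) and *Stk19* (-0.70 and -0.65). Probes that failed the signal filter were opposite to the brightest tested one for *Ly6g6d* (-0.94), *Lst1* (-0.45), *Trim26* (-0.33) and *Gabbr1* (-0.46). With a mouse left out, *Ppp1r10* ranged from -0.013 to 0.076, *C2* from -0.048 to 0.13, *Hspa1b* from -0.022 to 0.50, *Ly6g5b* from -0.0031 to 0.15, *Ly6g6c* from -0.17 to 0.18, *Btnl1* from -0.042 to 0.19, *Trim39* from -0.0088 to 0.25 and *Trim31* from -0.14 to 0.17.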

Other observations

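The 25 probes of the interval without a gene symbol had mean log2 ratios from -1.39 to 0.81 with a median of -0.15. Of these, 5 were lower in all 8 mice and 0 were higher in all 8 mice. Red signal was well above background on all 8 arrays at 3 of them, and 2 of these 3 were lower in all 8 mice, NAP027924-1 at -0.71 ± 0.30 and ENSMUST00000079918 at -0.57 ± 0.39.

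The SD between mice had a median of 0.45 over the 155 tested probes and 0.47 over all tested probes on the array. With red signal well above background on all 8 arrays it was 0.31 over 50 probes of the interval and 0.25 over 7388 probes. An SD above 1 was found at 13 of the 155 probes (8.39%, compared to 6.16% of all probes) and at 0 of these 50 (0.393% of the 7388).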
